A study of Mus musculus with 7 samples.

Results

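The genes described here encode BTB zinc finger transcription factors, the family of PLZF. The 10 genes, chosen by name for their known or proposed roles in T cell fate, were Zbtb16, Zbtb7b, Zbtb7a, Patz1, Bcl6, Bcl6b, Zbtb1, Zbtb17, Zbtb20 and Zbtb32. They were 10 of 18193 genes with a probe set of exactly 1 gene symbol, and 28 probe sets measured them. The expression arrays covered 3 groups of sorted thymocytes from mice of C57BL/6J background aged 4-6 weeks. The 3 Luxoid NKT samples were stage 1 natural killer T cells (positive for the CD1d tetramer, low in CD24, negative for CD44 and NK1.1) of PLZF-deficient Luxoid mice that also carried the Valpha14 T cell receptor transgene. The 2 stage 1 NKT samples had the same sort from Valpha14 transgenic mice with PLZF. The 2 CD4SP samples were CD4 single-positive thymocytes of wild-type mice, so both NKT groups carried the transgene and the CD4SP group did not. Every sample came from pooled mice and is called a biological replicate by the labels.

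BTB zinc finger proteins pair through an N-terminal BTB domain, which also recruits corepressor complexes or the ubiquitin ligase scaffold Cul3, and they bind DNA through C-terminal zinc fingers. In the thymus, members of the family act at branch points of T cell fate. PLZF, encoded by Zbtb16, gives NKT cells their innate-like effector properties. ThPOK, encoded by Zbtb7b, holds thymocytes in the CD4 lineage, with help from LRF, encoded by Zbtb7a. Bcl6 directs follicular helper T cells and germinal centre B cells.

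Both NKT groups had far more Zbtb16 RNA than CD4SP cells, and less Bcl6 and Zbtb20 RNA. Luxoid NKT cells had 2.75-fold more Bcl6 RNA than stage 1 NKT cells, while Zbtb16, Zbtb7b and Zbtb20 were not called between them. Zbtb7b was called lower than in CD4SP cells for Luxoid NKT but not for stage 1 NKT, though every NKT array lay below both CD4SP arrays. Calls used an adjusted p under 0.05 from limma, with Benjamini-Hochberg adjustment over the 10874 genes tested. Testing required that the probe set of highest mean was at 82.0 or more in at least 2 arrays, a filter set at the 50th percentile of the whole table. Of the 10 genes 8 passed that filter, and Bcl6b and Zbtb32 stayed under 82.0 in all 7 arrays.

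The arrays set limits that apply to every value below. Each group held 2 or 3 arrays, whose number limits the precision, and arrays within a group correlated at 0.985 to 0.992 against 0.969 to 0.992 between groups. Y-linked Kdm5d RNA was under 12 in the arrays numbered 1 and 758 or more in the others, and stage 1 NKT array 2 and Luxoid NKT array 3 carried both Kdm5d and Xist RNA. The labels do not give sex, and the name mixed-sex pools used below for those 2 arrays rests on these RNAs alone. Calls were therefore repeated without both, which leaves 1 stage 1 NKT array. Fits without 1 stage 1 NKT or 1 CD4SP array also leave 1 array in a group. In every comparison, all of these fits called fewer genes over the whole table than the main fit. The sort markers followed the labels for Cd24a, at 14.9 to 57.1 in Luxoid NKT, 14.1 to 14.2 in stage 1 NKT and 239 to 246 in CD4SP arrays, while Cd44 was at 180 to 310 in all 7 arrays with overlapping groups and Klrb1c, the gene of NK1.1, was not analysed here. The Cd3e level was 4035 or more in every array. The cell type label of the CD4SP samples repeats the NKT sort, whereas their titles, sources and descriptions say CD4SP, which was followed.

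**Figure D1:**
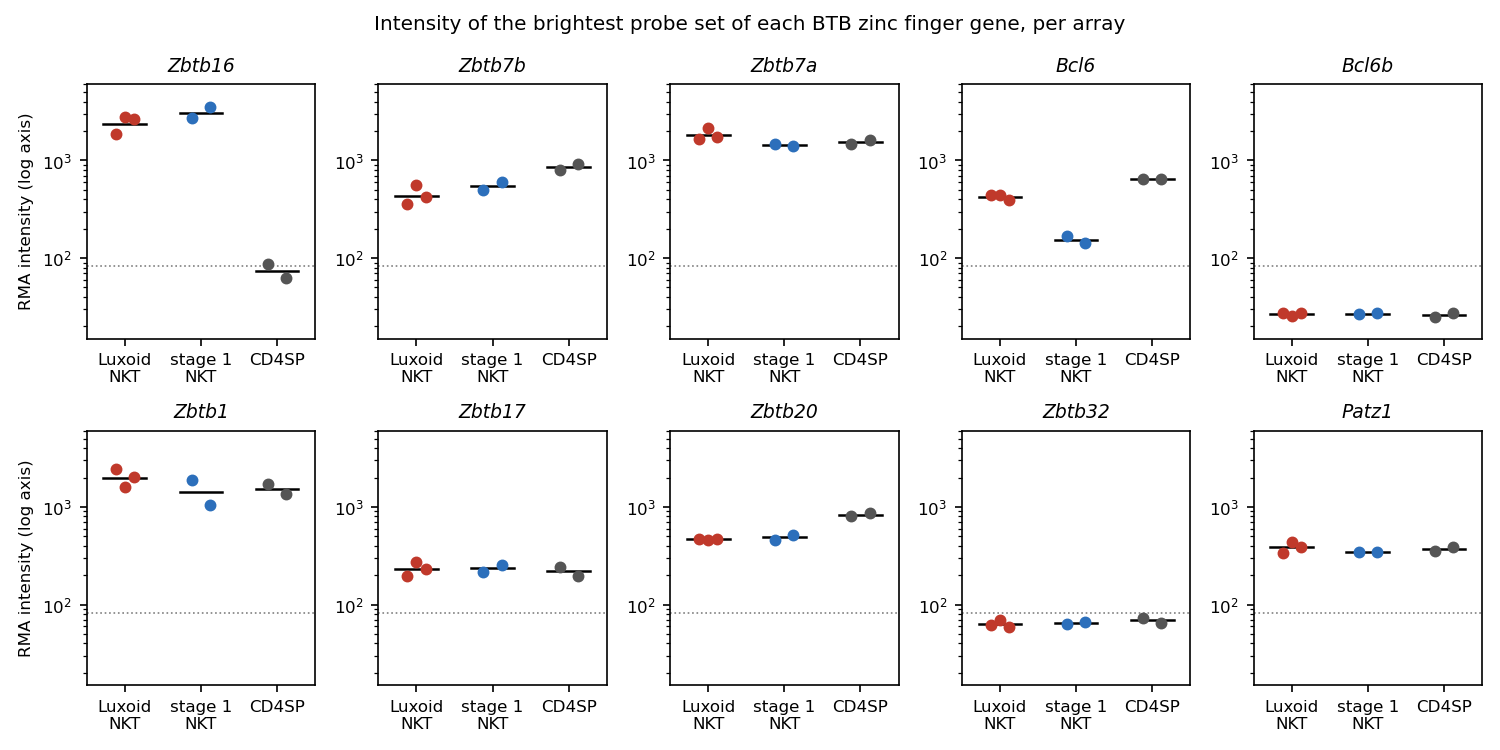
Intensity of the probe set of highest mean for each of the 10 BTB zinc finger genes in the 3 Luxoid NKT, 2 stage 1 NKT and 2 CD4SP arrays, on a log axis. Points are arrays, bars are geometric means and the dotted line is the filter intensity of 82.0; Zbtb16 separates both NKT groups from CD4SP, and Bcl6 lies lowest in stage 1 NKT.

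Zbtb16, the gene that Luxoid mice carry mutated, was read by 3 probe sets. The brightest gave 1857, 2774 and 2645 in the Luxoid NKT arrays, 2751 and 3488 in the stage 1 NKT arrays and 87.3 and 61.8 in the CD4SP arrays. Its level in CD4SP cells lay close to the filter intensity. The Luxoid NKT and stage 1 NKT arrays overlapped, and their log2 difference was -0.38 ± 0.23 (SE, adjusted p = 0.607), with a 95% interval of -0.90 to 0.15. Against CD4SP, Zbtb16 was higher in Luxoid NKT (log2 difference 5.02 ± 0.23, adjusted p = 5.13e-06) and in stage 1 NKT cells (5.40 ± 0.25, adjusted p = 1.04e-05), and no fold is given because 1 CD4SP array was under the filter. Arrays measure RNA, so these values do not show whether protein was made.

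The other Zbtb16 probe sets separated Luxoid NKT from stage 1 NKT more widely, though neither passed the threshold. Probe set 1427638_at gave 396, 472 and 444 in Luxoid NKT, 728 and 745 in stage 1 NKT, and 51.7 and 46.2 in CD4SP arrays. The Luxoid NKT and stage 1 NKT arrays did not overlap, and the log2 difference was -0.76 ± 0.15 (adjusted p = 0.0576 over 20360 probe sets). Probe set 1419874_x_at gave 621, 918 and 806 in Luxoid NKT, 1263 and 1580 in stage 1 NKT, and 51.5 and 41.6 in CD4SP arrays, again without overlap of the NKT groups. Its difference was -0.87 ± 0.21 (adjusted p = 0.123), and probe sets with the x suffix may cross-hybridise. All 3 Zbtb16 probe sets were called higher in both NKT groups than in CD4SP cells. They were among 7 of the 21 probe sets of these genes called for Luxoid NKT minus CD4SP, where 14.1% of all probe sets were called, and 8 of 21 for stage 1 NKT minus CD4SP, where 11.7% were.

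Zbtb7b encodes ThPOK, which represses genes of the CD8 lineage. It was at 356, 558 and 420 in Luxoid NKT, 497 and 601 in stage 1 NKT, and 803 and 918 in CD4SP arrays. Every NKT array lay below both CD4SP arrays, while the NKT groups overlapped. Zbtb7b was 1.97-fold lower in Luxoid NKT than in CD4SP cells (log2 difference -0.98 ± 0.20, adjusted p = 0.0126). That call was lost without CD4SP array 1 (adjusted p = 0.0576), without CD4SP array 2 (0.111) and without both mixed-sex pools (0.0812). For stage 1 NKT against CD4SP the difference was -0.65 ± 0.22 (adjusted p = 0.0894), and it passed the threshold without Luxoid NKT array 2 (0.0371) or with only those 2 groups in the fit (0.0430). Luxoid NKT against stage 1 NKT gave -0.32 ± 0.20 (adjusted p = 0.621, 95% interval -0.79 to 0.14). The second Zbtb7b probe set had the same 3 signs, and none of its differences was called, with -0.63 ± 0.18 for Luxoid NKT minus CD4SP (adjusted p = 0.0566).

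The related Zbtb7a, which encodes LRF, differed less. It was at 1668, 2149 and 1733 in Luxoid NKT, 1482 and 1420 in stage 1 NKT, and 1475 and 1615 in CD4SP arrays. All 3 Luxoid NKT arrays were above the other 4, but neither difference passed the threshold, at 0.34 ± 0.15 against stage 1 NKT (adjusted p = 0.443) and 0.25 ± 0.15 against CD4SP cells (adjusted p = 0.315). Of its other probe sets, 1450093_s_at gave 288, 821 and 358 in Luxoid NKT, 230 and 361 in stage 1 NKT, and 257 and 339 in CD4SP arrays. Luxoid NKT array 2 stood highest there and the groups overlapped.

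Patz1 encodes MAZR, a factor that represses Zbtb7b in CD8-lineage thymocytes. It was at 342, 433 and 391 in Luxoid NKT, 342 and 346 in stage 1 NKT, and 357 and 385 in CD4SP arrays. None of its differences was called, and the widest was 0.17 ± 0.15 for Luxoid NKT minus stage 1 NKT (adjusted p = 0.748, 95% interval -0.16 to 0.50).

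Bcl6 encodes a repressor that opposes the effector factor Blimp-1. It was the 1 gene of the 8 tested that was called between Luxoid NKT and stage 1 NKT, where 1.55% of the 10874 genes were called, 0.901% higher and 0.653% lower. By probe set, 1 of the 21 over the filter was called, against 1.15% of all probe sets. Its brighter probe set gave 439, 441 and 391 in Luxoid NKT, 167 and 142 in stage 1 NKT, and 639 and 646 in CD4SP arrays. No groups overlapped, with stage 1 NKT lowest, Luxoid NKT between and CD4SP highest. Bcl6 was 2.75-fold higher in Luxoid NKT than in stage 1 NKT cells (1.46 ± 0.14, adjusted p = 0.00143). It was 4.17-fold lower in stage 1 NKT than in CD4SP cells (-2.06 ± 0.15, adjusted p = 8.07e-05) and 1.52-fold lower in Luxoid NKT than in CD4SP cells (-0.60 ± 0.14, adjusted p = 0.0199). In such sorted bulk samples, fewer cells expressing a gene and less RNA per cell cannot be told apart.

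The call of Bcl6 between the NKT groups was kept without any 1 Luxoid NKT array and with only the 2 NKT groups in the fit. For this comparison, leaving out either CD4SP array gives that same fit and is no separate check. Leaving out either stage 1 NKT array leaves 1 in the group. Over the 7 fits that each left out 1 array, the difference was 1.34 to 1.57. Without both mixed-sex pools the difference was 1.40 with an adjusted p of 0.0866, in a fit that called 10 genes in all. The smaller difference between Luxoid NKT and CD4SP cells lost its call without Luxoid NKT array 3 (adjusted p = 0.0579), without CD4SP array 1 (0.0957), without CD4SP array 2 (0.113) and without both mixed-sex pools (0.0907). The second Bcl6 probe set gave 246, 305 and 166 in Luxoid NKT, 104 and 130 in stage 1 NKT, and 368 and 344 in CD4SP arrays. The order of the groups was the same without overlap, and the difference between the NKT groups was 0.99 ± 0.25 (adjusted p = 0.145 over the probe sets).

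Markers of immature double-positive thymocytes had, as a sum, the same order of groups as Bcl6, which no single marker over the filter had without overlap. Of 7 listed genes 6 were measured, and their summed intensity was 384 to 506 in Luxoid NKT, 283 to 295 in stage 1 NKT and 910 to 1033 in CD4SP arrays. The defining genes Rag1, Rag2 and Ptcra were under the filter intensity in every array, and Dntt, Cd8b1 and Cd8a were over it in some. Dntt was at 51.1 to 120 in Luxoid NKT, 46.4 to 73.7 in stage 1 NKT and 461 to 527 in CD4SP arrays, and Cd8b1 at 43.8 to 123, 61.9 to 67.6 and 223 to 268 in the same order, so that both overlapped between the NKT groups. Cd8a was at 144 to 184 in Luxoid NKT, 82.3 to 93.6 in stage 1 NKT and 135 to 148 in CD4SP arrays. The 5 measured B cell markers summed to 348 to 464 in Luxoid NKT, 383 to 418 in stage 1 NKT and 336 to 360 in CD4SP arrays, with Ms4a1 and Ebf1 under the filter intensity in every array. Within that sum, Cd79b was called higher in both NKT groups (138 to 211 in Luxoid NKT, 143 to 206 in stage 1 NKT and 43.0 to 66.2 in CD4SP arrays) and Cd79a lower (63.2 to 97.5, 74.0 to 85.6 and 138 to 143).

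Markers of other lymphocytes also moved with the groups. The 4 measured NK cell markers summed to 904 to 1047 in Luxoid NKT, 288 to 320 in stage 1 NKT and 130 to 153 in CD4SP arrays, with Ncr1, Klra8 and Eomes under the filter intensity in every array. The rest was Fcer1g, at 843 to 982 in Luxoid NKT, 218 to 253 in stage 1 NKT and 68.9 to 82.5 in CD4SP arrays, and called higher in Luxoid NKT than in stage 1 NKT (1.98 ± 0.15, adjusted p = 0.000554). The 4 regulatory T cell markers had overlapping sums, at 1147 to 1919 in Luxoid NKT, 1230 to 1647 in stage 1 NKT and 1413 to 1616 in CD4SP arrays. Of these, Foxp3 was at 148 to 193 in Luxoid NKT, 161 to 166 in stage 1 NKT and 449 to 465 in CD4SP arrays. Both Foxp3 and Ctla4 were called lower in both NKT groups than in CD4SP cells, and Il2ra in Luxoid NKT. Ikzf2 went the other way and was called higher in both NKT groups. It was at 910 to 1596 in Luxoid NKT, 902 to 1335 in stage 1 NKT and 453 to 540 in CD4SP arrays. Of 4 gamma delta T cell markers 1 was measured, Sox13, which was called higher in both NKT groups than in CD4SP cells. It was at 64.9 to 115 in Luxoid NKT, 199 to 348 in stage 1 NKT and 41.8 to 48.6 in CD4SP arrays. The part of all such cells in the differences of Zbtb16, Bcl6, Zbtb7b and Zbtb20 was not tested.

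The promoters of Bcl6 and Zbtb20 are shown because these were the 2 genes lower in both NKT groups than in CD4SP cells, and because Bcl6 differed between the NKT groups. Windows of 250 bases before to 50 after a transcript start came from the RefSeq table of build GRCm38.p6, where 8 of the 10 genes had 13 windows. Capitals mark matches to TTCNNNGAA, a core that STAT factors and Bcl6 itself can bind, and in Zbtb20 also to TGTGGT, a core of Runx sites. The lines give the upstream Bcl6 start at chr16:23988803-23989102, minus strand, the downstream Bcl6 start at chr16:23981234-23981533, minus strand, and the Zbtb20 start at chr16:43247034-43247333, plus strand.
Bcl6 upstream start: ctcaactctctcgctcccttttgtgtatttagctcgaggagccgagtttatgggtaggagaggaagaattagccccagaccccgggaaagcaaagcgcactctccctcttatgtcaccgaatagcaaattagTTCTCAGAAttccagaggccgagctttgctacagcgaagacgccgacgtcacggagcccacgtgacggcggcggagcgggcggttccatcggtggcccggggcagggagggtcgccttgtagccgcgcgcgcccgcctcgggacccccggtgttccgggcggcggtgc
Bcl6 downstream start: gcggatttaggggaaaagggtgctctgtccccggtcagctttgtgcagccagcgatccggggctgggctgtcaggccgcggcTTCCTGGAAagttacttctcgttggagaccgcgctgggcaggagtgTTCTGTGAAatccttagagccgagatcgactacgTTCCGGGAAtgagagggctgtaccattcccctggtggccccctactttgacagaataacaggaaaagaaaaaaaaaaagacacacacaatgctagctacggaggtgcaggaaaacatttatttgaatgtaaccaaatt
Zbtb20 start: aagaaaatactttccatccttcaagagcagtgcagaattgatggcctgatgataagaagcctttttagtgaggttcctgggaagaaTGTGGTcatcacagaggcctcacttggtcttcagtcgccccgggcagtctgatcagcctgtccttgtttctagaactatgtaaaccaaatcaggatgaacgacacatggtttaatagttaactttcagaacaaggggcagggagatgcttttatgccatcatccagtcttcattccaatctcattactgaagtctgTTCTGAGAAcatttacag

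The downstream Bcl6 window held 3 matches to TTCNNNGAA, TTCCTGGAA beginning at position -168 from the transcript start, TTCTGTGAA at -122 and TTCCGGGAA at -88. Among 32851 RefSeq windows of this length, 8.3% held at least 1 match on either strand, and 11 windows (0.0335%) held 3 or more. The upstream Bcl6 window held TTCTCAGAA at -118, and the Zbtb20 window held TTCTGAGAA at 33 and TGTGGT at -164. TGTGGT was in 16.8% of windows. The windows of the other 6 genes held no TTCNNNGAA. The searches also covered GCGNGGGCG for Egr factors (5.55% of windows), CAGNTG for E proteins (51.4%) and, for Gata factors, AGATAA (11.2%). All were searched on both strands, and no matches overlapped in the windows of these genes. The Zbtb7b windows held CAGGTG at -238 in one and TGTGGT at -89 in the other. The Zbtb7a window held AGATAA matches at -116 and -39, and the Zbtb1 window a GCGNGGGCG match at -190. For Zbtb32, CAGCTG was at -109 and -92 in the upstream window and a TGTGGT match at -227 in the downstream window. The downstream Patz1 window held CAGNTG matches at -173 and 18. The Zbtb17 windows held no match. A match describes letters and shows no binding.

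Bcl6b, a close relative of Bcl6, was at 25.0 to 27.2 in all 7 arrays and was not tested.

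**Figure D2:**
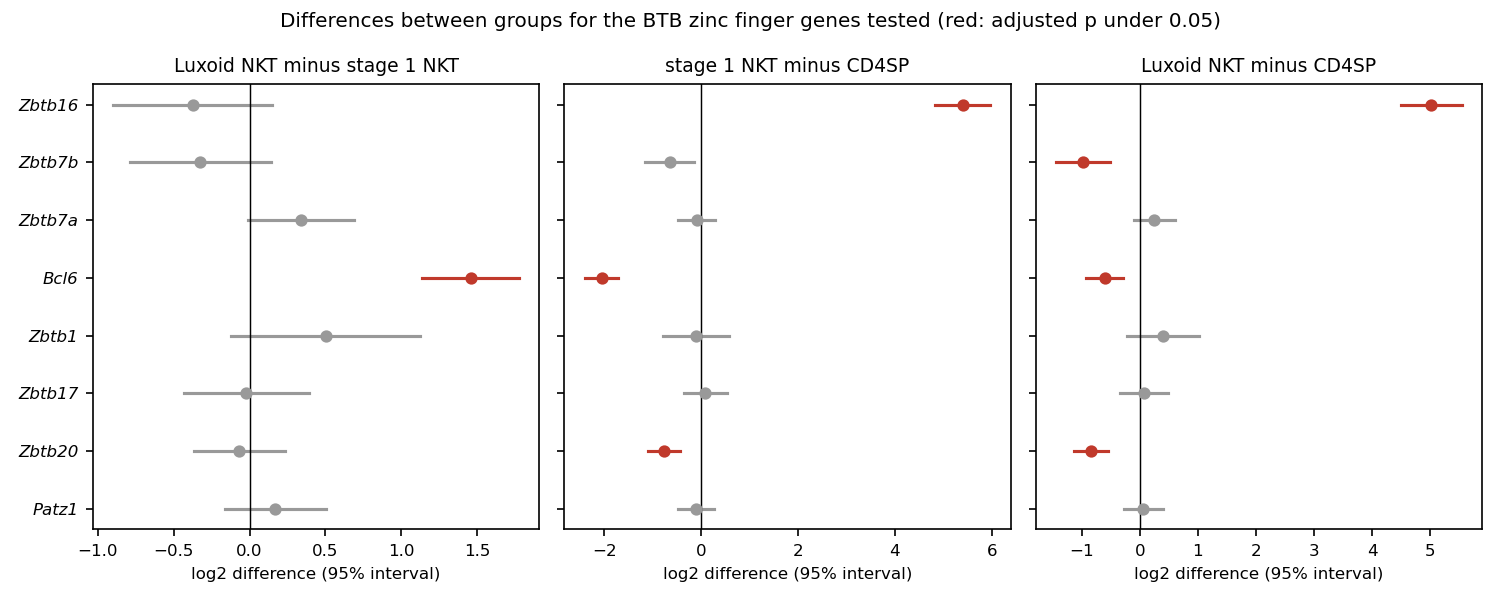
Log2 differences with 95% intervals for the 8 tested BTB zinc finger genes in the 3 comparisons, with called genes in red. Bcl6 is the called gene between Luxoid NKT and stage 1 NKT, Zbtb16 lies far above 0 against CD4SP in both NKT groups, and the horizontal scales differ between panels.

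Zbtb1 and Zbtb17 serve lymphoid development at earlier steps. Zbtb1, needed for T cell development from progenitors, was at 2435, 1602 and 2051 in Luxoid NKT, 1902 and 1050 in stage 1 NKT, and 1705 and 1349 in CD4SP arrays. The groups overlapped, and the widest difference, 0.50 ± 0.27 for Luxoid NKT minus stage 1 NKT, was not called (adjusted p = 0.554, 95% interval -0.12 to 1.12). Stage 1 NKT array 2 was the lowest for Zbtb1, and without it the difference for stage 1 NKT minus CD4SP was 0.33, against -0.10 with it. Zbtb17 encodes Miz-1, a partner of Myc that sustains interleukin 7 signalling in lymphoid progenitors. It was at 197, 273 and 230 in Luxoid NKT, 217 and 253 in stage 1 NKT, and 245 and 198 in CD4SP arrays. Its groups overlapped, and its 3 differences lay between -0.02 and 0.09 with none called.

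Zbtb20, known in B cells as a factor of plasma cell survival, was read by 9 probe sets, of which 6 passed the filter. The brightest gave 470, 454 and 473 in Luxoid NKT, 459 and 518 in stage 1 NKT, and 802 and 868 in CD4SP arrays. All 5 NKT arrays lay below both CD4SP arrays, and the NKT groups overlapped. Zbtb20 was 1.79-fold lower in Luxoid NKT than in CD4SP cells (-0.84 ± 0.13, adjusted p = 0.00310), a call kept in all 18 alternative fits. It was 1.71-fold lower in stage 1 NKT than in CD4SP cells (-0.77 ± 0.14, adjusted p = 0.00851). The second call was lost without CD4SP array 2 (0.0643), without stage 1 NKT array 1 (0.0754) and without the mixed-sex pools (0.0652). The difference between the NKT groups was -0.07 ± 0.13 (adjusted p = 0.911, 95% interval -0.37 to 0.23).

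The further Zbtb20 probe sets were dimmer. The second brightest gave 222, 204 and 178 in Luxoid NKT, 198 and 222 in stage 1 NKT, and 345 and 337 in CD4SP arrays. It was called lower in both NKT groups, at -0.76 ± 0.15 for Luxoid NKT minus CD4SP (adjusted p = 0.0124) and -0.70 ± 0.17 for stage 1 NKT minus CD4SP (adjusted p = 0.0304). For stage 1 NKT minus CD4SP all 9 probe sets had a negative difference, and 3 of the 6 over the filter were called. Probe set 1439128_at was called there (-0.73 ± 0.18, adjusted p = 0.0319) but had no call for Luxoid NKT minus CD4SP (-0.41 ± 0.16, adjusted p = 0.135). Probe set 1451577_at had 97.6, 82.9 and 98.0 as geometric means of Luxoid NKT, stage 1 NKT and CD4SP arrays.

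Zbtb32, induced in activated lymphocytes and known to restrain their responses, stayed at 59.3 to 73.0 in all 7 arrays in its brighter probe set, with overlapping groups. No member beside Zbtb16 lies on the chromosome of Zbtb16 in the GRCm38.p6 assembly.

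**Figure D3:**
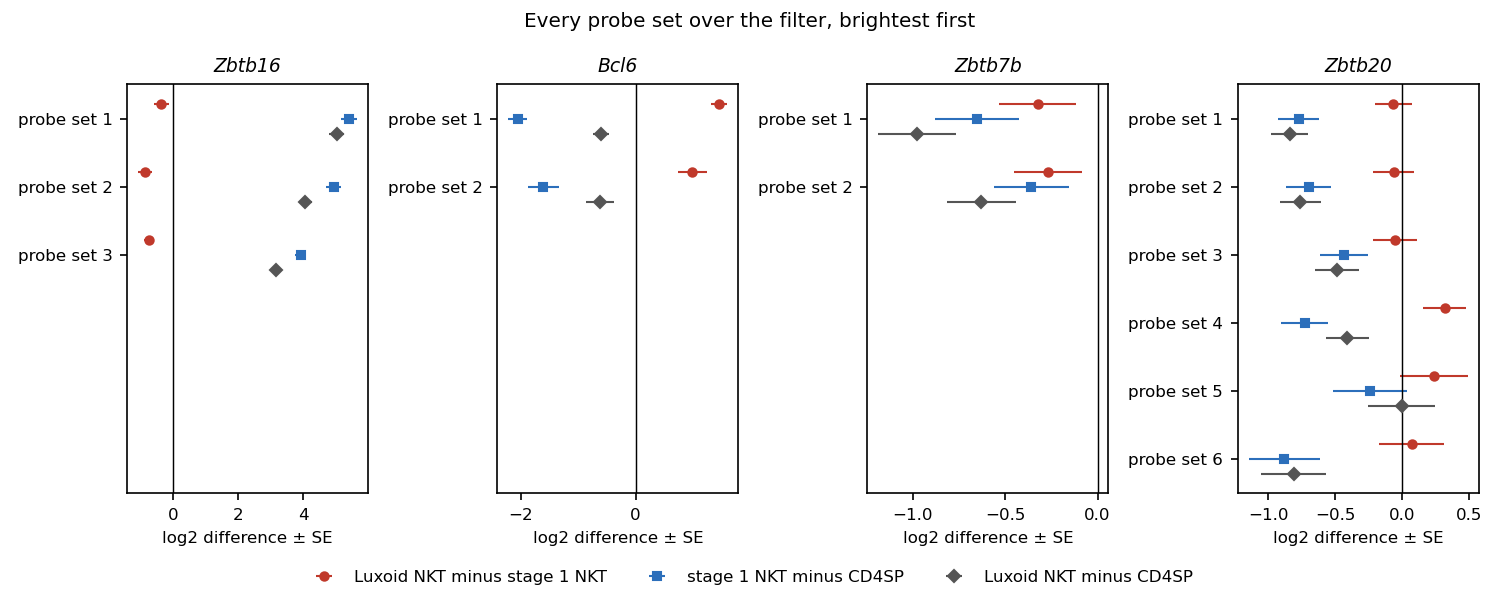
Log2 differences with SE for every probe set over the filter of Zbtb16, Bcl6, Zbtb7b and Zbtb20, brightest first, in the 3 comparisons. The probe sets of Zbtb16, Bcl6 and Zbtb7b keep 1 sign in each comparison, and for Luxoid NKT minus stage 1 NKT the Zbtb20 probe sets lie on both sides of 0.

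Against CD4SP cells, 4 of the 8 genes tested were called for Luxoid NKT, where 16.8% of all genes were called, and 3 of 8 for stage 1 NKT, where 14.9% were called. The calls were Zbtb16 higher and Zbtb7b, Bcl6 and Zbtb20 lower in Luxoid NKT, and Zbtb16 higher and Bcl6 and Zbtb20 lower in stage 1 NKT. Among all genes, 11.3% were higher and 5.51% lower in Luxoid NKT, and 10.8% were higher and 4.08% lower in stage 1 NKT. These comparisons share the CD4SP arrays. Whether or not called, 5 of the 8 genes had groups without overlap for Luxoid NKT against CD4SP (46.0% of all genes) and 5 of 8 for stage 1 NKT against CD4SP (60.2%), a share near the background in the second. For Luxoid NKT against stage 1 NKT 2 of 8 genes, Bcl6 and Zbtb7a, had groups without overlap (26.7% of all genes), again near the background. Without CD4SP array 1, without CD4SP array 2 or without both mixed-sex pools, fewer of the 8 genes were called for Luxoid NKT. For stage 1 NKT, fewer were called where CD4SP array 2, stage 1 NKT array 1 or both mixed-sex pools were left out. Each of those fits left 1 array in a group and called fewer genes over the whole table. The median log2 difference of the 8 genes was 0.07 for Luxoid NKT minus stage 1 NKT, 0.06 for Luxoid NKT minus CD4SP and -0.11 for stage 1 NKT minus CD4SP, and over all genes tested it was -0.03, 0.02 and 0.06 in the same order.

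The wider family was taken from a list of 38 other BTB zinc finger genes, of which 37 were measured and 32 tested. For Luxoid NKT against stage 1 NKT limma called 0 of the 32 (1.55% of all genes), and 2 had an unadjusted p under 0.05 (11.6% of all genes). Zbtb10, a zinc finger protein with little known in T cells, was higher in both NKT groups. It was at 409, 625 and 532 in Luxoid NKT, 353 and 376 in stage 1 NKT, and 109 and 113 in CD4SP arrays. All NKT arrays exceeded the CD4SP arrays by more than the spread within groups, with 2.22 ± 0.18 for Luxoid NKT minus CD4SP (adjusted p = 0.000106) and 1.72 ± 0.20 for stage 1 NKT minus CD4SP (adjusted p = 0.000921). Zbtb4, which encodes a protein that binds methylated DNA, was lower in both NKT groups, at 328, 365 and 279 in Luxoid NKT, 333 and 402 in stage 1 NKT, and 887 and 950 in CD4SP arrays. Its differences were -1.51 ± 0.16 for Luxoid NKT minus CD4SP (adjusted p = 0.000451) and -1.33 ± 0.18 for stage 1 NKT minus CD4SP (adjusted p = 0.00186). Both genes were called against CD4SP in all 18 alternative fits.

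Zbtb46, best known from conventional dendritic cells, was at 148, 127 and 144 in Luxoid NKT, 171 and 123 in stage 1 NKT, and 200 and 312 in CD4SP arrays. It was called lower in Luxoid NKT than in CD4SP cells (-0.84 ± 0.22, adjusted p = 0.0336). That made 3 of the 32 genes called there, where 16.8% of all genes were called. For stage 1 NKT 2 of the 32 were called, against 14.9% of all genes. The Zbtb46 call was lost without any 1 of the Luxoid NKT arrays (adjusted p = 0.0557, 0.0657 and 0.0730 without arrays 1, 2 and 3), without CD4SP array 2 (0.253) and without both mixed-sex pools (0.101).

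**Figure D4:**
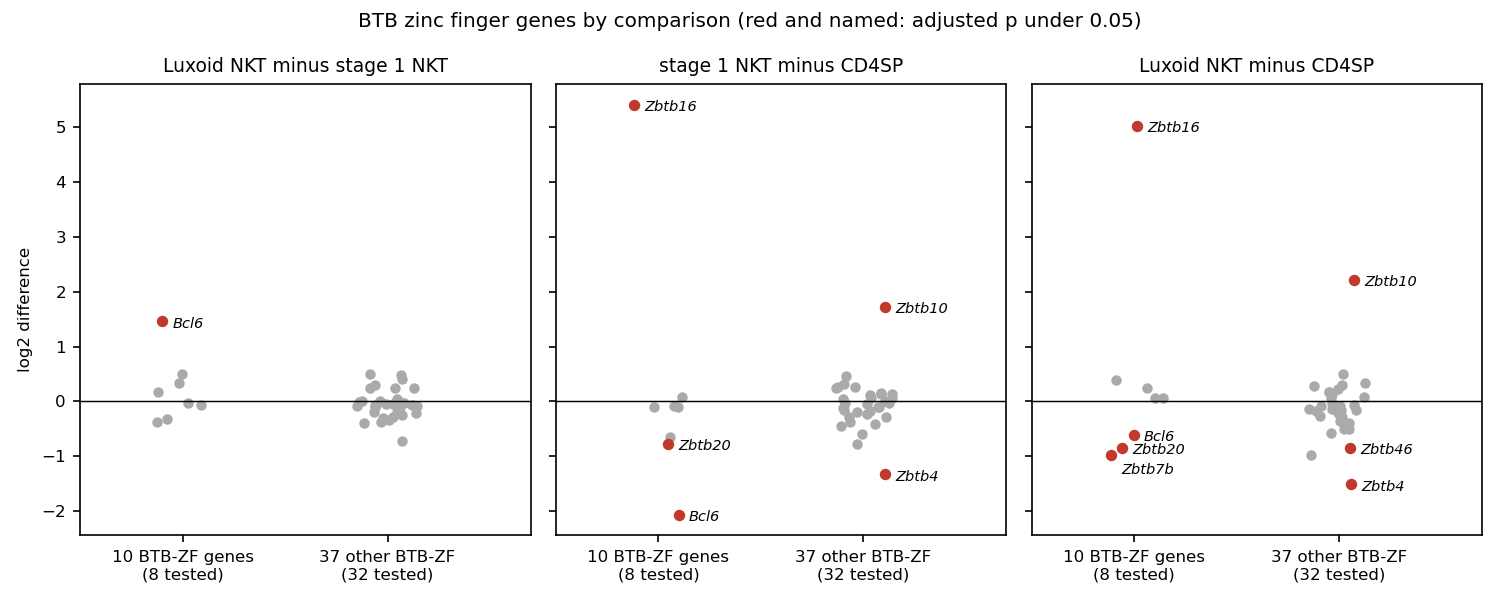
Log2 differences of the tested genes among the 10 BTB zinc finger genes (8 points) and among 37 others of the family (32 points) in the 3 comparisons, with called genes named in red. Against CD4SP, Zbtb16 and Zbtb10 stand above 0 and Bcl6, Zbtb20 and Zbtb4 below it in both NKT groups; sideways position within a column has no meaning.

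Corepressor subunits and partners through which these proteins act were counted next. Of 22 listed genes 20 were measured and 19 tested. For Luxoid NKT against stage 1 NKT 0 of 19 were called (1.55% of all genes) and 4 had an unadjusted p under 0.05 (11.6% of all genes). Against CD4SP, 3 rose and 1 fell in Luxoid NKT, where 16.8% of all genes were called, and 1 fell in stage 1 NKT, where 14.9% were called. Bcorl1, a relative of the Bcl6 corepressor Bcor, was the gene that fell in both. It was at 141, 140 and 118 in Luxoid NKT, 99.8 and 147 in stage 1 NKT, and 278 and 202 in CD4SP arrays. The Bcorl1 differences were -0.84 ± 0.21 for Luxoid NKT minus CD4SP (adjusted p = 0.0280) and -0.97 ± 0.23 for stage 1 NKT minus CD4SP (adjusted p = 0.0246). The risen genes were Rcor1, a subunit of the Kdm1a complex, Bmi1 of Polycomb complex 1 and Tbl1xr1, a subunit of corepressor complexes. These counts depended on single arrays. Without Luxoid NKT array 3 the 4 calls for Luxoid NKT became 2. In that fit 1372 of all genes were called, against 1831 in the main fit. Fewer were also called for Luxoid NKT without CD4SP array 1 or 2. The stage 1 NKT call was lost where CD4SP array 1 or stage 1 NKT array 1 was left out. Without both mixed-sex pools the calls of both comparisons were lost. The fits without a CD4SP array, a stage 1 NKT array or both pools left 1 array in a group and called fewer genes over the whole table.

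Factors known to act upstream of these genes or against them formed a further list. Of 18 listed genes 17 were measured and 16 tested. Against CD4SP, 8 rose, 1 fell and 7 were not called in Luxoid NKT (16.8% of all genes called), and 6 rose, 2 fell and 8 were not called in stage 1 NKT (14.9% of all genes called). The genes that fell were Bcl11b in Luxoid NKT (-0.51 ± 0.13, adjusted p = 0.0323), and Egr1 (-0.53 ± 0.15, adjusted p = 0.0471) and Runx3 (-0.98 ± 0.17, adjusted p = 0.00594) in stage 1 NKT. The Bcl11b call was lost without any 1 array other than Luxoid NKT array 2, the Egr1 call without any 1 of the 7 arrays, both of them without the mixed-sex pools, and the Runx3 call without stage 1 NKT array 1. Egr2, an Egr factor that induces Zbtb16 in NKT precursors, was at 3807, 4634 and 5130 in Luxoid NKT, 2292 and 2819 in stage 1 NKT, and 2174 and 2266 in CD4SP arrays. Luxoid NKT arrays were the highest for Egr2, at 1.02 ± 0.17 against CD4SP (adjusted p = 0.00442) and 0.82 ± 0.17 against stage 1 NKT (adjusted p = 0.0617). Egr3 was at 824, 844 and 976 in Luxoid NKT, 613 and 574 in stage 1 NKT, and 375 and 374 in CD4SP arrays. Its groups did not overlap, with 1.23 ± 0.14 for Luxoid NKT minus CD4SP (adjusted p = 0.000538) and 0.57 ± 0.14 for Luxoid NKT minus stage 1 NKT (adjusted p = 0.108).

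Id2, an inhibitor of E proteins, was at 2479, 2292 and 1900 in Luxoid NKT, 3708 and 3660 in stage 1 NKT, and 429 and 484 in CD4SP arrays. It was higher than in CD4SP by 2.28 ± 0.15 in Luxoid NKT (adjusted p = 3.52e-05) and by 3.02 ± 0.17 in stage 1 NKT (adjusted p = 2.14e-05). For Luxoid NKT minus stage 1 NKT the Id2 difference was -0.74 ± 0.15 (adjusted p = 0.0647), which was not called. Id2 is also a known target of repression by Bcl6. Its order among the groups was the reverse of that of Bcl6, with stage 1 NKT highest, Luxoid NKT between and CD4SP lowest. Among the 6 tested genes of the Bcl6 target list, 5 went the other way between the NKT groups. They had positive differences for Luxoid NKT minus stage 1 NKT, as Bcl6 had. A part of Bcl6 in the Id2 level was not tested. Myb, which supports NKT precursors, rose against CD4SP by 1.65 ± 0.19 in Luxoid NKT (adjusted p = 0.000564) and 1.08 ± 0.20 in stage 1 NKT (adjusted p = 0.00917). Between Luxoid NKT and stage 1 NKT 0 of the 16 were called, 8 had an unadjusted p under 0.05, and the list's median log2 difference was 0.27 against -0.03 over all genes tested. Among all genes 1.55% were called and 11.6% had an unadjusted p under 0.05 in that comparison.
The stage 1 NKT count of 8 calls fell without any 1 stage 1 NKT or CD4SP array and without both mixed-sex pools. Each of those fits left 1 array in a group and called fewer genes over the whole table.

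Known targets of the members were listed with earlier results of these data in view and give no independent direction. Of 8 target genes of PLZF, all tested, 4 fell and 0 rose in Luxoid NKT against stage 1 NKT (all genes: 0.653% lower, 0.901% higher). They were Icos, a costimulatory receptor, the type 2 cytokines Il4 and Il13, and Rora, a nuclear receptor. Rora was at 378, 365 and 571 in Luxoid NKT, 1703 and 1922 in stage 1 NKT, and 165 and 231 in CD4SP arrays. It lay 4.22-fold lower in Luxoid NKT than in stage 1 NKT cells (-2.08 ± 0.23, adjusted p = 0.00293). Fewer of these 4 genes were called without stage 1 NKT array 1 or 2 and without both mixed-sex pools. Each of those fits left 1 stage 1 NKT array and called fewer genes over the whole table. Against CD4SP, 5 of the 8 rose and 1 fell in Luxoid NKT (11.3% and 5.51% of all genes). In stage 1 NKT 6 rose and 1 fell (10.8% and 4.08% of all genes). Il4, Il13, Rora, Il17rb and Maf were higher in both NKT groups. Bach2, a repressor of effector genes, was at 1587, 1133 and 1005 in Luxoid NKT, 702 and 578 in stage 1 NKT, and 4274 and 4079 in CD4SP arrays. It was called lower than in CD4SP in both NKT groups, at -1.78 ± 0.20 in Luxoid NKT (adjusted p = 0.000638) and -2.71 ± 0.22 in stage 1 NKT (adjusted p = 0.000139), and Luxoid NKT minus stage 1 NKT gave 0.93 ± 0.20 (adjusted p = 0.0760).

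Of 8 target genes of ThPOK 6 were tested. The coreceptor gene Cd8a was at 144, 184 and 152 in Luxoid NKT, 82.3 and 93.6 in stage 1 NKT, and 135 and 148 in CD4SP arrays. Cd8a was called higher in Luxoid NKT than in stage 1 NKT (0.86 ± 0.16, adjusted p = 0.0342), as was Gzmb, the gene of granzyme B (1.28 ± 0.23, adjusted p = 0.0358). Gzmb was at 277, 216 and 184 in Luxoid NKT, 115 and 73.1 in stage 1 NKT, and 53.5 and 61.9 in CD4SP arrays. Both genes lay close to the filter intensity in stage 1 NKT. Of the 6 genes, 5 had a positive difference there. Prf1 was lower without a call (-0.22 ± 0.15, adjusted p = 0.651), and Eomes was not tested. In that comparison 0.901% of all genes were called higher. Fcer1g of the NK cell list moved the same way (above), and its part was not tested. These 2 calls were lost without any 1 array except Luxoid NKT array 1, without which 1 was kept. Cd4 was at 2164, 2360 and 2164 in Luxoid NKT, 1888 and 2232 in stage 1 NKT, and 5824 and 6754 in CD4SP arrays. Its log2 difference was -1.49 ± 0.14 for Luxoid NKT minus CD4SP (adjusted p = 0.000251) and -1.61 ± 0.16 for stage 1 NKT minus CD4SP (adjusted p = 0.000322). Genes of the CD8 lineage, which ThPOK represses, were also called lower there. Against CD4SP, Cd8b1 gave -1.67 ± 0.36 in Luxoid NKT (adjusted p = 0.0145) and -1.92 ± 0.39 in stage 1 NKT (adjusted p = 0.0136), and in stage 1 NKT Runx3 gave -0.98 ± 0.17 (adjusted p = 0.00594) and Cd8a -0.68 ± 0.17 (adjusted p = 0.0302). In all, 2 of the 6 fell and 1, Gzmb, rose in Luxoid NKT (5.51% and 11.3% of all genes). In stage 1 NKT 4 fell and 0 rose (4.08% and 10.8% of all genes). Fewer of the 6 were called for Luxoid NKT without CD4SP array 1 or 2. For stage 1 NKT fewer were called without any 1 stage 1 NKT or CD4SP array, or without both mixed-sex pools. Each of those fits left 1 array in a group and called fewer genes over the whole table.

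Of 8 target genes of Bcl6 6 were tested, and limma called 0 of them between Luxoid NKT and stage 1 NKT (1.55% of all genes). An unadjusted p under 0.05 was reached by 3 of them (11.6% of all genes). A positive difference was found for 5 of the 6, and Id2 was lower in Luxoid NKT. Prdm1, the gene of Blimp-1, did not pass the filter and was not tested. Its geometric means were 63.7 in Luxoid NKT, 35.6 in stage 1 NKT and 46.0 in CD4SP arrays. S1pr1, the receptor for thymic exit, was at 1910, 2091 and 2125 in Luxoid NKT, 1077 and 1395 in stage 1 NKT, and 2122 and 2678 in CD4SP arrays. It fell in stage 1 NKT against CD4SP (-0.96 ± 0.18, adjusted p = 0.0103), a call lost without stage 1 NKT array 1, without CD4SP array 2 and without both mixed-sex pools. Its difference between Luxoid NKT and stage 1 NKT was 0.73 ± 0.17 (adjusted p = 0.0918).

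The genes whose log2 levels tracked a member most closely over the 7 arrays are given as a description, since the groups set most of each correlation and the arrays share them. For Zbtb16 these were Gins2, a replication factor (Pearson's r = 0.997), Trgv4, a gamma chain variable segment (0.996), and Kirrel3 (0.995). For Zbtb7b they were Hmg20b (0.988), Ddx60 (0.979) and Nckap5l (0.975). For Bcl6 they were Tsc22d3, a gene induced by glucocorticoids (0.997), Rflnb (0.997) and Arap2 (0.994). Tsc22d3 was at 781, 826 and 586 in Luxoid NKT, 118 and 87.6 in stage 1 NKT, and 1242 and 1401 in CD4SP arrays, the order of groups that Bcl6 had.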

How the data were processed

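RNA of 7 pooled samples of sorted thymocytes was amplified as biotin-labelled cDNA for single-colour Affymetrix arrays, per the labels' protocols. The deposited table holds linear intensities (3.08 to 20875), which the authors made with RMA and Affymetrix Expression Console, per the submitters' processing notes. Their versions and the genome build are not stated there. RMA equalises array distributions and compresses differences of dim probe sets. Array medians were 79.6 to 83.7.

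Here log2 was taken first. Of 45037 probe sets, 34945 had 1 symbol in the GEO platform annotation, 932 had several and 9160 were not listed; 34741 matched RefSeq by gene ID. The probe set of highest mean stood for each of 18193 genes. limma 3.58.1 in R 4.3.3 (lmFit, eBayes) was fitted to all 7 arrays and tested on simulated data. No fold is printed against a group that lay wholly under 82.0, or for Zbtb16 against CD4SP, where 1 array was under it. Alternatives numbered 18, of which 17 were planned and 1, without both mixed-sex pools, was chosen after seeing the data.

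Members, lists (6 pathway lists and 10 marker lists) and the naming rule were chosen with earlier results of these data known. That rule named every member, called genes of each list with the largest differences first, and the 3 genes most like Zbtb16, Zbtb7b and Bcl6. Sequences were credited to RefSeq, build GRCm38.p6.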

Additional observations from a re-analysis of the deposited data

How the results depend on the processing

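Members were refitted under 18 alternatives, which were not independent. For both comparisons of Luxoid NKT, the 2 fits that left 1 array in the third group equalled the fit of the 2 groups compared. Zbtb16 against CD4SP (log2 4.08 to 5.27 for Luxoid NKT, 4.75 to 5.65 for stage 1 NKT), Bcl6 for stage 1 NKT minus CD4SP (-2.17 to -1.84) and Zbtb20 for Luxoid NKT minus CD4SP (-0.91 to -0.54) were called in all 18. Bcl6 for Luxoid NKT minus stage 1 NKT (1.22 to 1.57) was called in 17. Leaving out 1 array in turn gave 55 to 178 genes called for Luxoid NKT minus stage 1 NKT, 643 to 1846 for stage 1 NKT minus CD4SP and 866 to 1726 for Luxoid NKT minus CD4SP, and 1, 2 to 4 and 2 to 4 members in the same order. Without both mixed-sex pools, which leaves 5 arrays, 10, 520 and 918 genes and 0, 2 and 2 members were called in that order. With the replicate block the counts of genes were 170 (133 shared with the 169), 2616 (1618 shared with the 1621) and 2299 (1738 shared with the 1831), and Zbtb7b for stage 1 NKT minus CD4SP passed the threshold (adjusted p = 0.0263). It also passed with Kdm5d as a covariate (0.0421). Under the block, Luxoid NKT minus CD4SP lost the calls of Zbtb46 (adjusted p = 0.0648) and Bcorl1 (0.0682). Samples of equal number deviated together (r of 0.33 to 0.49), but the labels tie no number to a shared animal or day and at most 2 pairs exist per comparison.

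The differences that changed sign were uncalled. Zbtb17 for Luxoid NKT minus stage 1 NKT ran from -0.14 to 0.094 with single arrays left out, and was 0.016 with the mean of probe sets, 0.015 after quantile normalization, 0.011 after median centring and 0.092 without both mixed-sex pools. Zbtb17 for stage 1 NKT minus CD4SP ran from -0.066 to 0.24, and was -0.072 with the mean of probe sets and -0.020 without the pools; for Luxoid NKT minus CD4SP it ran from -0.087 to 0.22 and was -0.056 with the mean of probe sets. Zbtb20 for Luxoid NKT minus stage 1 NKT ran from -0.15 to 0.021, and was 0.16 with the mean of probe sets and 0.0095 without the pools. Zbtb1 for stage 1 NKT minus CD4SP ran from -0.53 to 0.33 and was 0.33 without the pools. Patz1 for Luxoid NKT minus CD4SP ran from -0.021 to 0.15 and was -0.016 after quantile normalization. The causes were not tested. Signal over background limits Bcl6b and Zbtb32, which stayed under the filter in every array.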
